A study of Apostichopus japonicus with 9 samples.

Results

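A set of 100 intestinal transcripts of the sea cucumber Apostichopus japonicus was described, chosen by their counts, which were lower in every library from diluted sea water than in any library from control or concentrated sea water. They were taken from 27269 gene models that had a line in at least 1 library. The study sequenced poly(A) RNA of the intestine in 9 libraries, each made from equal amounts of RNA of 3 animals. The groups were SD30, the control at a labelled salinity of 30, SD20, diluted to 20, and SD40, concentrated to 40, with 3 libraries each. All animals had been held at 15 °C and fed daily for a week before 20 were assigned to each group, and salinity was then moved by 2.5 every 6 h. The salinities carry a percent sign in some labels and no unit in others, so the labelled numbers are used as they stand. Neither the time at the final salinity nor the animals' age is stated there. Whether the 3 pools of a salinity shared a tank is not stated either. If they did, salinity and tank cannot be told apart, and the spread between libraries leaves out differences between tanks. That spread may also be partly technical.

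Sea cucumbers are osmoconformers, animals whose body fluid follows the salt concentration of the surrounding water. They have no kidney-like organ that holds it constant, and their cells answer dilution by releasing ions and small organic solutes such as free amino acids, which limits swelling. The intestine digests the organic matter of swallowed sediment and is bathed in body fluid on one side and in gut content on the other. The identifiers (AJAP numbers) are not paired with gene names in the files, and 0 of them were found in RefSeq's table for the species (assembly ASM3797524v1). Members are therefore given by identifier, length and level, with no role, pathway, position or sequence, and the tissue label could not be checked against marker genes.

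The selection used the deposited estimated counts, with a missing line taken as 0, divided by a factor per library (the median ratio to the mean library, over the 12361 genes above 0 in all 9 libraries). The result is called a scaled count. A mean scaled count of at least 10 was reached by 12545 genes. In 350 of them (2.79%) the highest SD20 library lay below the lowest of the 6 other libraries. Requiring the SD30 and SD40 means to lie within 2.5-fold of each other, after adding 1, removed 27 and left 323 (2.57%). The 100 with the largest ratio of the lowest other library to the highest SD20 library, each plus 1, are the members. Because these values chose the members, their levels at low salinity are a description and were not tested. With SD30 or SD40 in the place of SD20 the same steps left 202 and 90 genes, and the reverse pattern, every SD20 library above all others, was met by 338. These counts were not tested against each other.

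Estimated counts per library summed to between 2834168 (SD40 replicate 3) and 4060892 (SD30 replicate 2). The factors did not follow these totals. The SD20 libraries had factors of 1.32, 1.41 and 1.55, the SD30 libraries 0.537, 0.566 and 1.15, and the SD40 libraries 1.34, 1.03 and 0.850. In SD30 replicates 1 and 2, which have the smallest factors, the 10 most abundant genes took 44.6% and 62.5% of counts, against 24.0% to 42.3% in the other libraries. Gene detection and the representation of long gene models also differed between libraries. Across genes, Spearman's rho of length with the level in 1 library relative to the mean level ran from -0.188 in SD40 replicate 2 to 0.217 in SD40 replicate 1. It was 0.157, -0.0078 and 0.210 in SD20, and -0.095, -0.118 and -0.016 in SD30. At 2800000 reads, SD20 libraries detected 20188 to 22104 genes, SD30 libraries 16749 to 19710 and SD40 libraries 18576 to 21339. SD20 and SD30 did not overlap in the length trend or in the genes detected. For each, the exact two-sided permutation p was 0.1, the smallest value possible with groups of 3, and 0.3 once adjusted over 6 such comparisons.

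The separation held for every member by construction, but it was narrow for most of them. The ratio of the lowest other library to the highest SD20 library had a median of 1.47, with quartiles of 1.33 and 1.61, and reached 2 in 7 members. Group means were further apart. The mean of the 6 other libraries was at least 2-fold above the SD20 mean in 93 members, at least 3-fold in 65 and at least 5-fold in 25, with a median of 3.75-fold. In RNA from whole intestine, fewer cells of a type and less RNA per cell cannot be told apart. The median was 3.81-fold for SD30 over SD20 and 3.19-fold for SD40 over SD20.

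**Figure D1:**
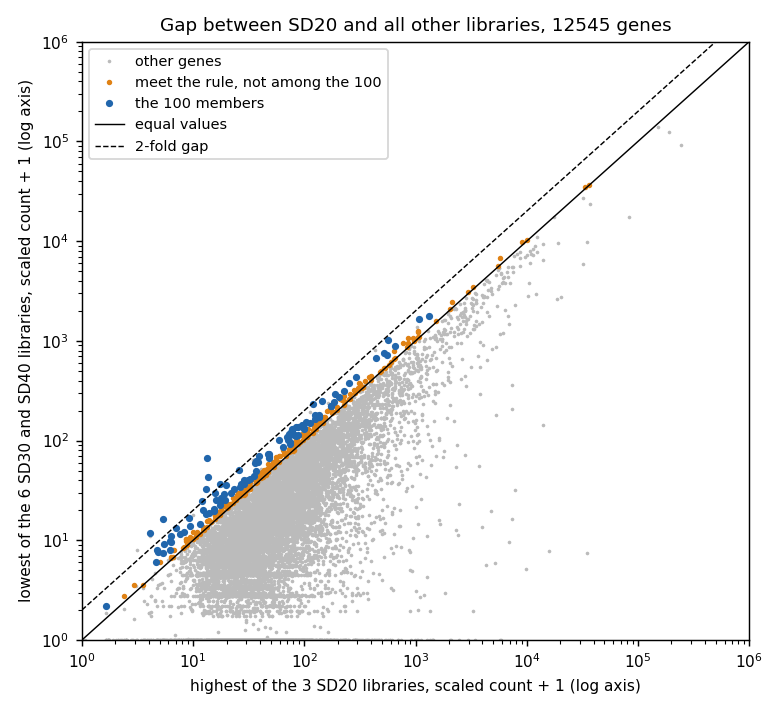
Each point is 1 of the 12545 genes with a mean scaled count of at least 10. The horizontal axis gives the highest of the 3 SD20 libraries and the vertical axis the lowest of the 6 SD30 and SD40 libraries, both as scaled count + 1 on log axes. The members (blue) lie just above the line of equal values and 7 of them reach the 2-fold line, while the orange points are the 223 genes that met the rule with smaller ratios.

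The 6 members with the widest gap had mean scaled counts of 20.9 to 138, against a median of 37.2 over all 12545 genes. AJAP14942, with a length of 1452 bases, led the list. The SD20 libraries held 7.56, 6.38 and 12.2 scaled counts, the SD30 libraries 629.8, 83.1 and 82.6, and the SD40 libraries 198.0, 157.1 and 65.9. The lowest library outside SD20 was thus 5.05-fold above the highest SD20 library, each plus 1. SD30 replicate 1 was far above the other control libraries, so the control mean of 265 ± 316 carries a wide error, against 8.72 ± 3.09 in SD20 and 140.3 ± 67.7 in SD40 (SD, n = 3 each). Its log2 fold change was -4.84 (SE 0.95) for SD20 against SD30 and -4.01 (SE 0.91) for SD20 against SD40, from an edgeR fit across all genes, and the first became -3.27 without SD30 replicate 1. The estimated counts of AJAP14942 were whole numbers in all libraries, 9 to 19 in SD20 and 47 to 338 elsewhere.

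AJAP19845, a gene model of only 211 bases, was near 0 in part of SD20. It stood at 12.5, 0.603 and 1.16 scaled counts in SD20, at 180.4, 98.4 and 42.2 in SD30 and at 127.6, 52.8 and 55.2 in SD40. SD20 replicate 1 was well above the other SD20 libraries and still below all 6 libraries at higher salinity. The log2 fold change against SD30 was -4.38 (SE 1.04), and it became -6.58 without SD20 replicate 1. AJAP28474, of 738 bases, was the most even of these members at higher salinity. It stood at 4.34, 1.97 and 2.27 scaled counts in SD20, at 33.4, 15.3 and 25.2 in SD30 and at 28.7, 34.4 and 42.0 in SD40. Its SD20 values rest on 2.78 to 5.74 estimated counts per library.

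AJAP22975, of 507 bases, had no read in SD20 replicate 3 and 4.15 and 4.37 estimated counts in the other SD20 libraries. In scaled counts it stood at 26.7, 56.7 and 206 in SD30 and at 11.0, 79.8 and 58.4 in SD40, against 3.14, 3.10 and 0 in SD20. The values outside SD20 spanned a wide range, and SD40 replicate 1 came closest to SD20. AJAP06939, of 903 bases, stood at 10.9, 2.10 and 12.2 scaled counts in SD20, at 71.3, 216 and 76.6 in SD30 and at 47.2, 155.5 and 32.0 in SD40. AJAP09343, the longest member at 3084 bases, stood at 14.4, 16.4 and 9.75 scaled counts in SD20, at 89.5, 99.2 and 63.0 in SD30 and at 35.7, 148.9 and 161 in SD40. In both, the groups outside SD20 overlapped each other. The estimated counts of these 3 members, of AJAP19845 and of AJAP28474 were not whole in every library, so reads may have been divided between similar gene models and their levels are uncertain where such copies exist.

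**Figure D2:**
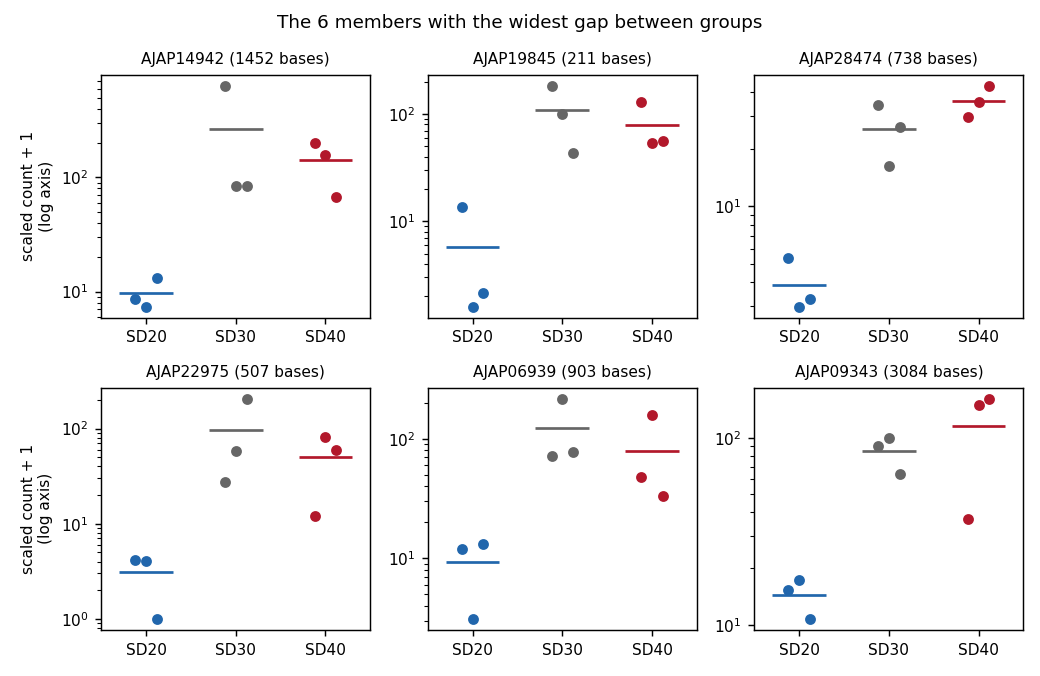
Scaled count + 1 (log axis, its range set per panel) in each library for the 6 members with the widest gap. Points are libraries, in the order of the replicate numbers, and lines are arithmetic group means (n = 3). All SD20 points lie below all others, and the SD30 and SD40 points overlap in every panel.

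The most abundant members showed the same order with smaller differences. AJAP25320, of 1101 bases, stood at 1042, 1065 and 649 scaled counts in SD20, at 1822, 6808 and 1675 in SD30 and at 1971, 2701 and 2424 in SD40. SD30 replicate 2 was far above every other library. Its log2 fold change against SD30 was -1.86 (SE 0.57), and -0.94 without that library. AJAP20295, of 564 bases, had the highest level per length of the named members. In the authors' FPKM, which is scaled for length, its SD20 level was 901 ± 27.6, its SD30 level 1042 ± 577 and its SD40 level 1557 ± 407 (SD, n = 3 each). The SD20 libraries held 1320.3, 1278 and 1145 scaled counts, the SD30 libraries 3069, 2159 and 2666, and the SD40 libraries 1783, 3243 and 3363. In the counts before scaling, SD30 replicates 1 and 2 (1647 and 1221) lay below all SD20 libraries (1746.5 to 1801.8), so for this gene the order rests on the scaling. The same holds for AJAP25320, AJAP17099 and AJAP25461, where SD30 replicate 1 held 978, 830 and 400 estimated counts and the highest SD20 library 1502, 860 and 673.

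AJAP22007, of 2136 bases, kept its order with and without scaling. Before scaling, the SD20 libraries held 745, 744 and 553 estimated counts, the SD30 libraries 1797, 1480.0 and 1175, and the SD40 libraries 1790.0, 2846 and 1353, all whole numbers. The scaled mean was 482 ± 111 at low salinity, 2329 ± 1190 in the control and 1894 ± 760.4 at high salinity (SD, n = 3 each). AJAP17099, of 519 bases, stood at 650.2, 501 and 395 scaled counts in SD20, at 1547, 4833 and 892 in SD30 and at 1046, 1459 and 1616 in SD40. SD30 replicate 2 was again the highest library, as for AJAP25320. Its log2 fold change against SD30 was -2.19 (SE 0.61), and -1.25 without that library. AJAP25461, of 432 bases, stood at 437, 302 and 433 scaled counts in SD20, at 745, 1586 and 958 in SD30 and at 787, 1471 and 679.7 in SD40.

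**Figure D3:**
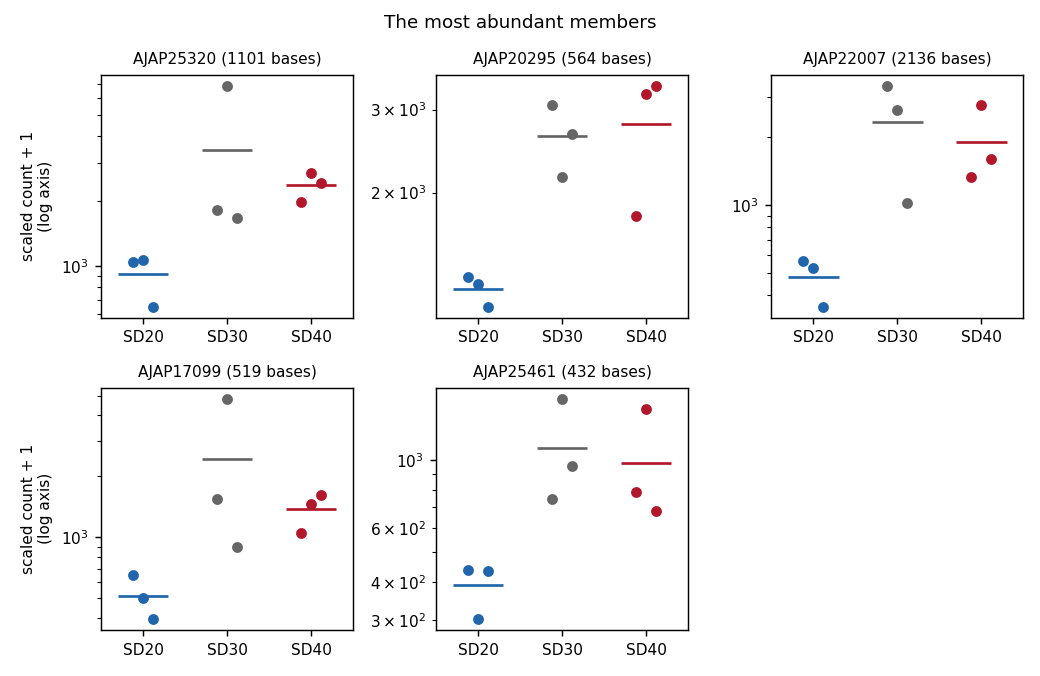
Scaled count + 1 (log axis, its range set per panel) for the 4 members with the highest mean and for AJAP25461, which completes the 4 most abundant members with whole counts. Points are libraries, in the order of the replicate numbers, and lines are arithmetic group means (n = 3). SD30 replicate 2 is the highest point for AJAP25320, AJAP17099 and AJAP25461.

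At the limit of 100 the gap was small. The last members, AJAP25861 and AJAP04926, had ratios of 1.261 and 1.260, and the first genes outside, AJAP07254 and AJAP28910, had 1.246 and 1.245. AJAP04926 stood at 50.7, 73.0 and 41.2 scaled counts in SD20 and between 92.3 and 332 in the other libraries. AJAP07254 stood at 87.7, 124 and 71.4 in SD20 and between 155 and 443 elsewhere. Nothing in these values separates the last members from the first genes outside. Further down the list ratios were smaller, and of all 323 genes 112 had a ratio under 1.1.

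Counts in SD20 were low for part of the members. In 29 members at least 1 SD20 library held fewer than 10 estimated counts. Of the 300 member values in SD20, 5 were 0, in 4 members, and no member was at 0 in all SD20 libraries (0 of 100). The lowest case was AJAP20200, singled out after its values were seen, with 0, 0 and 1 counts at low salinity, 18, 12 and 14 in the control and 5, 24 and 1 at high salinity. Its level in SD40 replicate 3 was then 1 read as well, and the order of those libraries is not resolved at this depth.

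In 94 members the SD30 and SD40 libraries overlapped. Orders of SD30 and SD40 were not counted over all genes, so nothing about the set is read from the numbers below. With the median-of-ratios factors the SD30 mean was the higher in 68 members and the SD40 mean in 32. This turned over with library totals and with FPKM as deposited, where the SD30 mean was the higher in 17 and the SD40 mean in 83. With the factors, the median difference between the group means, in either direction, was 1.28-fold. The rule limited this difference to 2.5-fold, so it is not a separate result. With the factors, all SD40 libraries lay between SD20 and SD30 in 5 members, and with totals or FPKM in none of them (0 of 100 members). AJAP10548, of 645 bases, stood at 69.4, 32.6 and 38.6 scaled counts in SD20, at 113, 123 and 107 in SD40 and at 406, 184 and 207 in SD30. AJAP00140, of 581 bases, stood between 9.0 and 12.1 in SD20, at 20.8, 17.5 and 17.6 in SD40 and at 48.4, 44.2 and 28.7 in SD30. AJAP01764, AJAP24394 and AJAP05047 had the same order with the factors, with SD30 means 1.46-fold, 1.34-fold and 1.74-fold above the SD40 means. With library totals these ratios of SD30 to SD40 were 0.979, 0.948 and 1.16, so the direction of the first and second turned. In AJAP14015 all SD40 libraries lay above all SD30 libraries, with the factors, with totals and in FPKM. Under totals and FPKM this order was met by 11 members. These 6 genes were singled out after their values were seen.

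**Figure D4:**
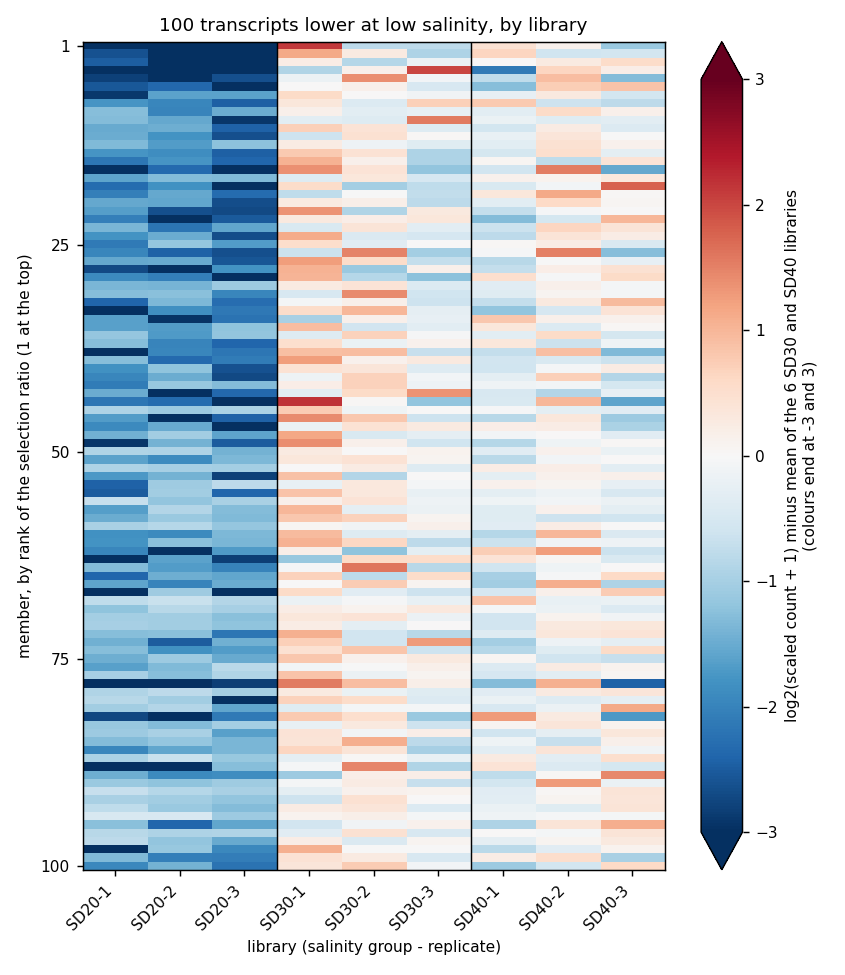
Each row is a member, ordered by the selection ratio, and each column a library. Colour gives log2(scaled count + 1) minus the mean of the 6 SD30 and SD40 libraries, and ends at -3 and 3. The SD20 columns are blue throughout by construction, while among the other columns SD30 replicate 1 is most often the highest (36 members) and SD40 replicate 1 most often the lowest (32 members).

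The members were not evenly placed among the 6 libraries that the rule treated alike. The rule used the scaled counts of these libraries, and its ratio the lowest of them, so the shares below are a description. The highest of these was SD30 replicate 1 in 36 members and SD30 replicate 2 in 24, against 20.7% and 16.0% of all 12545 genes. The lowest was SD40 replicate 1 in 32 members, and SD30 replicate 3 and SD40 replicate 3 in 24 each. Over all genes these shares were 18.5%, 13.6% and 17.6%. The median difference of a member from its mean over these 6 libraries, on the log2(scaled count + 1) scale, was 0.31, 0.16 and -0.23 in SD30 and -0.34, 0.10 and -0.06 in SD40. In SD20 it was -1.60, -1.52 and -1.74.

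This order tended to follow the library factors. Across the 6 libraries the members' median difference correlated with log2 of the factor at r = -0.892 (Spearman's rho = -0.943, n = 6 libraries). The same factors enter the scaled counts, so this is a description. Taken singly, 85 members had a negative correlation with log2 of the factor over these 6 libraries, against 50.1% of all genes. The SD20 libraries had the largest factors of all except SD40 replicate 1, which at 1.34 lay above SD20 replicate 1. In that library the members' scaled counts summed to 20174, against 7567 to 9468 in SD20, a direction that the choice of members fixes.

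Before scaling, the members together took 0.349%, 0.367% and 0.315% of all counts at low salinity, 0.602%, 0.517% and 0.737% in the control, and 0.672%, 0.908% and 0.798% at high salinity. All SD20 shares were below all others, which the choice of members favours. Member by member the picture was less clear. With libraries scaled to their totals, 34 of 100 members still had every SD20 library below all 6 others, among them all 6 of the members with the widest gap and 9 of the last 50. Against SD40 alone the order held for 97 members, and against SD30 alone for 36. The lowest library outside SD20 was then SD30 replicate 2 in 51 members and SD30 replicate 1 in 28. Means were less affected. The SD20 mean lay below the SD40 mean in 100 members and below the SD30 mean in 93, with median ratios of 2.49 for SD40 and 1.94 for SD30. How many of all genes have these orders was not counted, and the same libraries chose the members, so these values are a description.

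**Figure D5:**
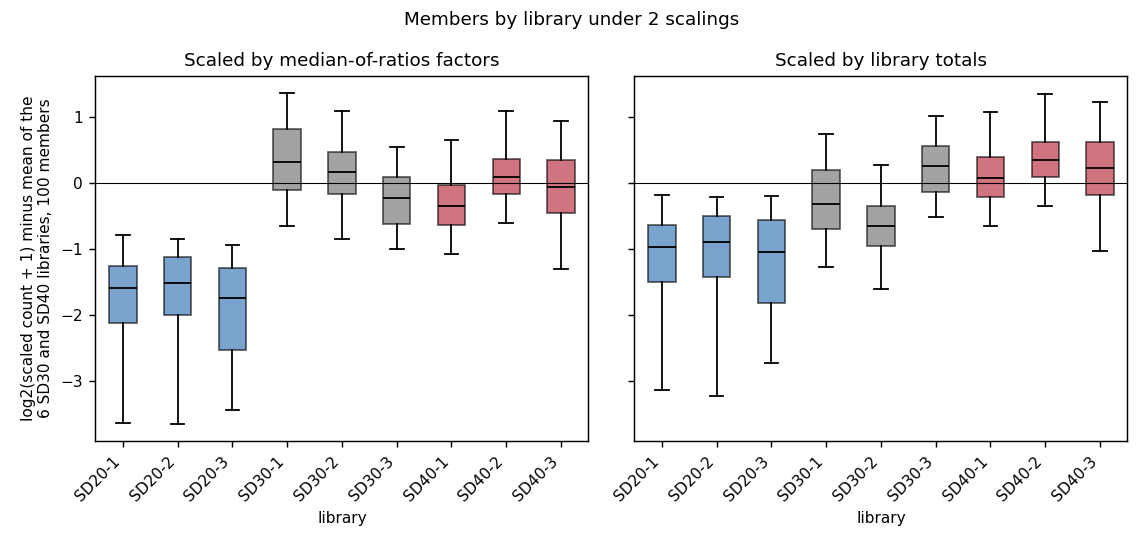
Boxes give the median and quartiles, and whiskers the 5th and 95th percentiles, of log2(scaled count + 1) minus the mean of the 6 SD30 and SD40 libraries over the 100 members. Libraries are scaled by median-of-ratios factors (left) or by totals (right). With totals, SD30 replicates 1 and 2 move toward the SD20 libraries, and SD40 stays apart.

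The members' rows were then read from a fit across all 14191 genes with sufficient counts (edgeR quasi-likelihood test, all 9 libraries, TMM scaling). All 100 members passed the filter on low counts. This filter can be passed through the higher groups alone, and the rule used the same contrasts, so nothing is read from the counts that follow. For SD20 against SD30, 0 of 14191 genes passed an adjusted p of 0.05 (0%), and no member did (0 of 100, lowest edgeR adjusted p = 0.370). At an unadjusted p under 0.05, 947 genes were lower in SD20 (6.67%), 91 of the members among them, and 791 were higher. Scaled to totals, 173 were lower, 25 of the members among them, and 2462 were higher. The median log2 fold change was -1.89 over the members and 0.07 over all genes with TMM, and -0.93 and 0.92 with totals. The members' median minus that of all genes was -1.95 under TMM and -1.86 under totals. A change of scaling moves all genes by nearly the same amount, so this difference can hardly change and is no sign of stability. DESeq2 called 262 genes lower in SD20 (1.85%), 62 members among them.

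For SD20 against SD40, 1 gene passed in edgeR (0.00705%), and it is not a member. At an unadjusted p under 0.05, 572 genes were lower in SD20 (4.03%), 92 members among them. Scaled to totals, 256 were lower at that threshold, 49 members among them, and 458 were higher. DESeq2 called 50 lower (0.352%), 18 members among them. For SD20 against the mean of both other groups, 0 genes passed in edgeR (0%, lowest adjusted p = 0.421). At an unadjusted p under 0.05, 767 were lower (5.4%), 98 members among them. Scaled to totals, 203 were lower at that threshold, 47 members among them, and 1859 were higher. DESeq2 called 204 lower (1.44%), 68 members among them. For SD40 against SD30, 0 genes passed in edgeR (0%) and 894 had an unadjusted p under 0.05 (6.3%), 3 members among them. These 3 were AJAP14015, AJAP10548 and AJAP00140. DESeq2 called 44 genes there (0.31%) and none of the members (0 of 100). These contrasts share libraries, so their counts are not independent of each other.

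Length was not used by the rule. It was close to that of all 12545 genes, with a median of 1005 bases and quartiles of 704 and 1424, against 1071, 693 and 1632. In 4 equal classes of length, from short to long, 2.61%, 3.03%, 2.65% and 2.01% of genes met the rule. Abundance enters the rule through the minimum mean and the levels compared, so the following values are a description. The median mean scaled count was 89.9 in the members and 37.2 in all genes, and 51 members belonged to the most abundant of 4 equal classes. From the least to the most abundant class, 1.24%, 1.56%, 2.20% and 5.29% of genes met the rule. In the authors' FPKM the members had a median of 29.5 over the 6 other libraries and 11.1 over SD20, against 9.65 and 13.4 in all genes, a contrast that the selection on the same libraries favours.

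Variation within groups was lower in the members. The median coefficient of variation over the 3 libraries was 31.8% at low salinity, 36.7% in the control and 29.9% at high salinity, against 38.4%, 51.1% and 50.3% in all genes. A gene with a wide spread is less likely to meet the rule, so the choice of members bears on these values. Estimated counts were whole in every library for 49 members, and for 43.7% of all genes. No members had consecutive identifier numbers (0 pairs), and the closest numbers were 8 apart. What the numbering follows is not stated.

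Members varied together only loosely. After removal of the SD30 and SD40 means, the correlation of log2(scaled count + 1) between 2 members was taken over the 6 libraries. It had a mean of 0.149 over 4950 pairs, with quartiles of -0.224 and 0.560. The mean over pairs of all genes was 7.33e-05. The same libraries and factors chose the members, so these values are a description and their difference was not tested. The members closest to the mean profile of the set over these libraries were AJAP24625 (r = 0.978) and AJAP22493 (r = 0.961), both with whole counts. AJAP24625, of 876 bases, stood at 14.4, 14.9 and 7.08 scaled counts in SD20, at 70.8, 56.6 and 32.2 in SD30 and at 29.0, 50.4 and 31.8 in SD40. AJAP22493, of 2397 bases, stood at 73.3, 74.5 and 35.4 in SD20, at 514, 318 and 131 in SD30 and at 119.9, 212 and 182 in SD40. Both were highest in SD30 replicate 1 and lowest, outside SD20, in SD40 replicate 1. By contrast AJAP22975 (r = 0.013) and AJAP28474 (r = -0.080) did not follow the mean profile.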

How the data were processed

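Intestinal poly(A) RNA was sequenced on a BGISEQ-500 in 9 pooled libraries, per the labels' protocols. The submitters' processing notes name CASAVA 1.5. The aligner, the counting program and the genome build are not stated. The deposited files hold expected counts per gene model (estimated counts with up to 2 decimals, not normalized, per the file headers and values), FPKM scaled by the authors and the gene model length. Lengths were multiples of 3 for 93.5% of models, so most may be coding lengths, which could not be checked. The longest of the 12545 genes had a stated length of about 1761000 bases.

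The members, lists and tests were chosen with earlier results of these data known. The genes named are those with the 6 widest gaps, the 4 highest means, the 4 highest means with whole counts, 2 on each side of the limit and 2 closest to the mean profile. Other genes are said to be singled out. Pathway and marker lists could not be matched, since no identifier has a name. All genes were tested with edgeR 4.0.16 (R 4.3.3) on counts rounded to whole numbers, with filterByExpr, TMM, robust quasi-likelihood fits of all 9 libraries by group, and Benjamini-Hochberg adjustment at 0.05. The SE of a log2 fold change is its size divided by the square root of F. Alternatives used DESeq2 1.42.0, limma 3.58.1 with pseudocounts of 1 and 0.1 on log2 FPKM (genes reaching 1 FPKM in 3 libraries), other scalings and filters, and the omission of each library. The edgeR fit and the rule were run on simulated counts with planted falls in SD20. The share of planted genes recovered is not given here, so the low number of edgeR calls cannot be judged from it. Python 3.11.15 was used for the rule.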

Additional observations from a re-analysis of the deposited data

Results flagged for a closer look

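AJAP14015, of 1062 bases, lay on opposite sides of the control at low and high salinity when scaled by median-of-ratios factors. The SD20 libraries held 24.7, 35.8 and 20.5 scaled counts, the SD30 libraries 61.8, 104 and 62.8, and the SD40 libraries 135, 233 and 108, so all SD20 libraries lay below and all SD40 libraries above the SD30 libraries. The SD40 mean was 2.08-fold the SD30 mean. With library totals and in FPKM the SD20 and SD30 libraries overlapped, and all SD40 libraries still lay above SD30. In edgeR neither SD20 against SD30 (log2 fold change -1.45, SE 0.46, adjusted p = 0.376) nor SD40 against SD30 (1.12, SE 0.46, adjusted p = 0.770) passed. The direct comparison of SD20 with SD40 gave a log2 fold change of -2.57 (SE 0.48) and did not pass (edgeR adjusted p = 0.635). The gene was chosen partly for its low SD20 values, so this is no separate support, and its counts were not whole in every library.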

How the results depend on the processing

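The choice of members depended on the scaling. The 323 genes that met the rule became 44 with library totals and 48 with FPKM as deposited, and 33 and 34 of the 100 members were then among the chosen. The members' median ratio was 0.810 and 0.852 in these settings, below 1, against 1.47. With TMM, 347 genes met the rule and 95 members were kept, and a minimum mean of 50 kept 65. FPKM as deposited, and factors within 10 classes of length (326 genes, 84 members kept), were added after seeing the data. Leaving out each library gave 357 to 745 genes and kept 36 to 80 members. The count was over 1.5 times higher without SD20 replicate 1, 2 or 3 (704, 745 and 486) and without SD40 replicate 1 or 3 (574 and 513). Fewer libraries are easier to separate. The median ratio without a library was 1.47 to 1.56. DESeq2 called 348, 77, 44 and 289 genes in either direction for SD20 against SD30, SD20 against SD40, SD40 against SD30, and SD20 against the mean of both. The single edgeR call for SD20 against SD40 became 0 with library totals, with both limma settings, in a fit of 6 libraries and without any 1 library (0 to 0), and the cause was not tested. The count stayed at 1 with median-of-ratios (RLE) scaling in edgeR and without the filter on low counts. Without the filter on low counts, SD40 against SD30 gave 1 call. All 17 named genes were chosen for SD20 values below all others, so the sign of their contrasts is no sign of stability. No named gene passed in edgeR, while 12 and 7 passed with DESeq2 for SD20 against SD30 and SD40, on contrasts that the choice used. The comparison of SD30 with SD40 means under totals and FPKM was added after seeing the data.

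With the replicate number as a replicate block, SD20 against SD40 gave 0 calls. Same-numbered libraries did not deviate together (correlations of -0.0929 to 0.193 over 9 pairs), and 3 of 9 libraries correlated best with their own number, so the numbers were not taken as pairs.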
